A study of Mus musculus with 8 samples.

Results

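Serine synthesis and folate one-carbon metabolism were followed through 10 genes in 2 mouse cell lines. The genes were taken by name from the deposited count table: *Phgdh*, *Psat1*, *Psph*, *Shmt1*, *Shmt2*, *Mthfd1*, *Mthfd2*, *Mthfd1l*, *Mthfd2l* and *Aldh1l2*. All 10 were found, each under 1 gene ID, among 43346 genes in the table, and all 10 had enough counts to be tested with the 18546 genes that passed the low-count filter. LLC1 is a Lewis lung carcinoma line, derived from a spontaneous lung tumour of the mouse. MLE12 is a mouse lung epithelial line from a tumour driven by a transgene that placed the large T antigen of a simian virus under the surfactant protein C promoter. Both lines came from a cell repository and were grown in culture without added reagent, and each was sequenced in 4 libraries. Each group is therefore 1 line, so that a difference between the groups is a difference between these lines and not between tumour and normal lung.

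Serine is made from a glycolytic intermediate in 3 enzymatic steps. Serine hydroxymethyltransferase then moves a carbon from serine to tetrahydrofolate and leaves glycine. The folate-bound carbon is oxidised and reduced by parallel sets of enzymes in the mitochondria and the cytosol, leaves the mitochondria mostly as formate, and is spent on purines, thymidylate and the methylation of homocysteine. Growing tumour cells are known to draw heavily on the mitochondrial branch, and several of these genes are known targets of the stress-responsive transcription factor ATF4.

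Library totals ran from 46840648 to 55285307 counts in LLC1 and from 48643667 to 76722481 in MLE12. Levels are CPM (counts-per-million, with library sizes scaled by TMM), as mean ± SD over the 4 libraries of a line. A positive log2 fold change (given ± SE) means a higher level in LLC1. Each adjusted p comes from the quasi-likelihood test of edgeR, with Benjamini-Hochberg adjustment across all genes tested, and a gene is called at an adjusted p under 0.05. Whether a line's libraries came from separate cultures is not stated in the labels, so the p-values measure the spread between these libraries, which may be technical. The epithelial markers *Nkx2-1*, *Sftpc*, *Sftpb*, *Cdh1* and *Epcam* were each below 1 CPM in LLC1 (130, 30, 62, 110 and 5 counts over its 4 libraries), while *Krt8* and *Krt18* were present there at 209 and 293 CPM. In MLE12 the first 5 were at 147, 23.6, 32.4, 154 and 3.36 CPM, and *Krt8* and *Krt18* at 106 and 0.930 CPM, so that 5 of these 7 markers were higher in MLE12 and 2 in LLC1. The 6 leukocyte markers, with *Adgre1* under its older symbol *Emr1*, summed to 17.9 to 20.5 CPM in LLC1 and 13.8 to 16.4 in MLE12. That sum came almost wholly from *Cd68* and *Csf1r*, whereas *Ptprc* had 0 and 2 counts over the lines' libraries. The 4 endothelial markers summed to 0.457 to 0.898 CPM in LLC1 and 3.02 to 3.78 CPM in MLE12. Of 6 mesenchymal markers, *Vim*, *Col3a1* and *Pdgfra* were higher in LLC1 and *Col1a1*, *Pdgfrb* and *Dcn* in MLE12, with sums of 5278 to 5684 and 1250 to 1330 CPM. The part of these marker differences in the results on the 10 genes was not tested.

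Of the 10 genes, 9 were called higher in LLC1, none was called higher in MLE12, and *Mthfd1* was not called. Of all genes tested, 40.7% were called higher in LLC1 and 40.9% in MLE12, or 81.6% together, so that a call alone sets a gene apart little. Against a minimum fold of 2 (edgeR's glmTreat, adjusted p under 0.05), 6 of the 10 genes were called higher in LLC1 and none in MLE12. Of all genes tested, 16.7% and 16.9% were so called (33.7% together). The median log2 fold change of the 10 genes was 1.46, and that of all genes tested was 0.02. Every LLC1 library lay above every MLE12 library for 9 of the 10 genes, and for 37.7% of all genes tested. The reverse held for 0 of the 10 and for 38.7%, so that 76.3% of all genes tested had no overlap. Summed over the 10 genes, the level was 2916 to 3139 CPM in the LLC1 libraries and 1271 to 1310 CPM in the MLE12 libraries. In RNA of whole cultures, fewer cells expressing a gene and less of its RNA per cell cannot be told apart.

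**Figure D1:**
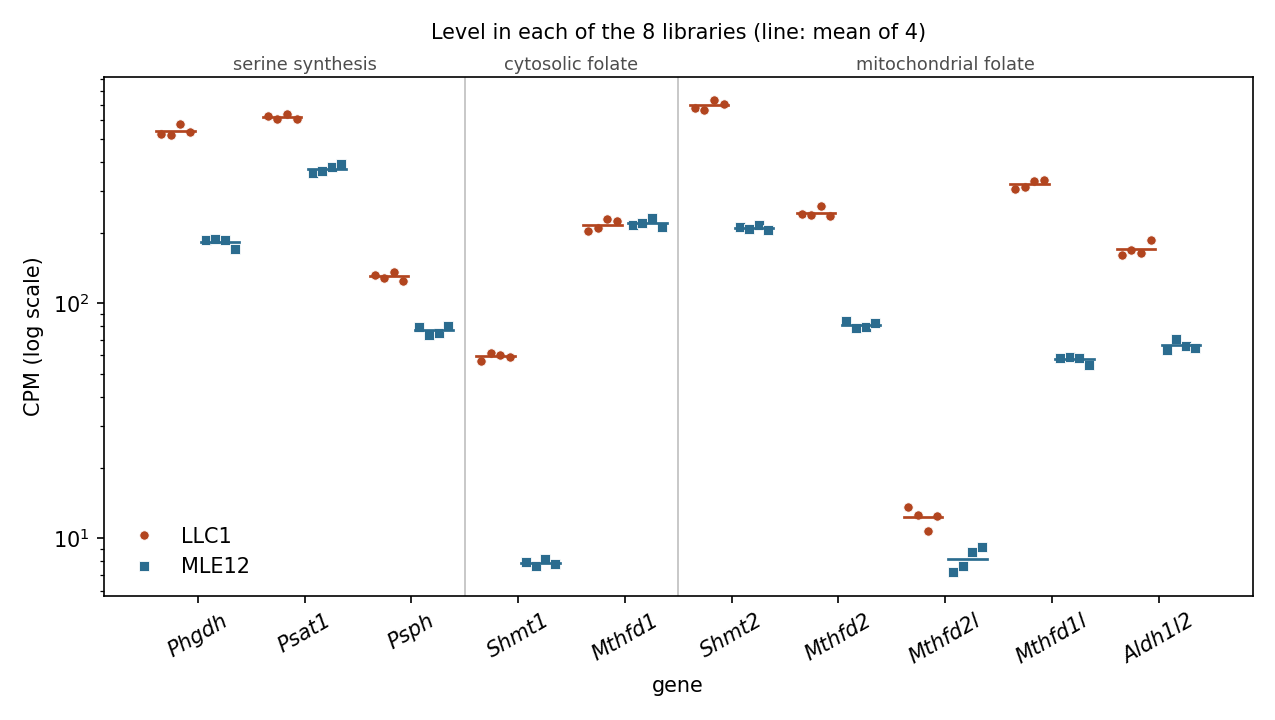
Level of each of the 10 genes in every library, in CPM on a log axis, with LLC1 as circles and MLE12 as squares, the mean of 4 libraries as a line, and the genes grouped by pathway branch. The lines' points are apart for every gene except Mthfd1, whose 8 values lie between 202 and 231 CPM.

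The promoter windows of the genes are shown first, because 9 of the 10 moved the same way and ATF4, MYC and NRF2 are known regulators of several of them. RefSeq windows (GRCm38.p6, 250 bases before to 50 after the gene start) were matched for 9 genes, *Psat1* with 2 windows, and *Aldh1l2* had no entry. That start can lie inside the counted gene model. The counted *Psat1* model, on the minus strand, runs to 15947337, beyond both its windows. That of *Shmt1*, also on the minus strand, runs to 60811718, beyond its window (60811216-60811515). Printed here are the 3 serine synthesis genes, *Mthfd2*, and, for contrast in their response, *Mthfd1l* and *Mthfd1*. Each sequence runs 5′ to 3′ on the gene's strand, and capitals mark the letters CCAAT or their reverse complement.
Phgdh chr3:98339920-98340219, minus strand: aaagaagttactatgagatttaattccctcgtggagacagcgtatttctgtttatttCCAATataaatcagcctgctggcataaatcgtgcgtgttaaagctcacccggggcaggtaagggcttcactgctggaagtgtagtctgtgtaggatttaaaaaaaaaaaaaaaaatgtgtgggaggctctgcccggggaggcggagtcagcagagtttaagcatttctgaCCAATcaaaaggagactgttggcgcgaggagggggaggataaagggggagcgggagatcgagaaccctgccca
Psat1 chr19:15925010-15925309, minus strand: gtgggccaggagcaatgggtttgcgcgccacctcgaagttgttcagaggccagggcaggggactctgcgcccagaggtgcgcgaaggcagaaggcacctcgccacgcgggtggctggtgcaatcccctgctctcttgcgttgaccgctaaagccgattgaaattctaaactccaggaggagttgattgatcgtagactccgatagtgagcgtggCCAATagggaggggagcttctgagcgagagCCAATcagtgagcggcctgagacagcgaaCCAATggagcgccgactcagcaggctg
Psph chr5:129787204-129787503, minus strand: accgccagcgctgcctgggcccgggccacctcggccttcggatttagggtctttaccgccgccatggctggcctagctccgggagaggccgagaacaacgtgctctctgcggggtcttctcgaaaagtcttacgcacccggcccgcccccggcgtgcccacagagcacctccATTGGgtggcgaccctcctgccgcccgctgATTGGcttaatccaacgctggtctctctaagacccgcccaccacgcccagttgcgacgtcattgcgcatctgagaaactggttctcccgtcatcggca
Mthfd2 chr6:83317555-83317854, minus strand: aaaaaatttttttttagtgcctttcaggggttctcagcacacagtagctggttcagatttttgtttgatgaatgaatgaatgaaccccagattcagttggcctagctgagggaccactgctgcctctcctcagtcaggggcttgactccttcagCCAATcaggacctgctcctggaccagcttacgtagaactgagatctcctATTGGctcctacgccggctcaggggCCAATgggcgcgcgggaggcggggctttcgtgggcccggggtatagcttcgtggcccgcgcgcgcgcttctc
Mthfd1l chr10:3972825-3973124, plus strand: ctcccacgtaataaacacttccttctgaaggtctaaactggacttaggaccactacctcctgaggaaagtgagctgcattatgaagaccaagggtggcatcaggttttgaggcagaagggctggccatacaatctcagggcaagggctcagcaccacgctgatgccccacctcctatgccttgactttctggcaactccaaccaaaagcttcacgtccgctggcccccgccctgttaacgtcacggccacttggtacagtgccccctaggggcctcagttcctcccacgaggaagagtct
Mthfd1 chr12:76254982-76255281, plus strand: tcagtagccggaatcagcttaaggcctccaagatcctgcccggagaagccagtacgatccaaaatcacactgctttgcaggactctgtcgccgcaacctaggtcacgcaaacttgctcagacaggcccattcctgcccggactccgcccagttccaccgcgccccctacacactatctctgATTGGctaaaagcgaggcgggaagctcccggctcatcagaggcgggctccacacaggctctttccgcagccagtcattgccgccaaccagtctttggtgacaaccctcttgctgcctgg
The letters TGATGNAA, a core of the element bound by ATF4 with C/EBP proteins, occurred on either strand in 0 of the 10 windows and in 3.97% of 32851 promoter windows of that length. The E-box CACGTG bound by MYC also occurred in 0 of the 10, beside 7.15% of all windows. The antioxidant response element TGACNNNGC, searched on both strands, occurred in 2 of the 10, those of *Phgdh* (as GCGGAGTCA) and *Psph* (as GCGACGTCA), beside 12.4% of all windows. CCAAT, a motif searched after the sequences were seen and common in promoters, occurred on either strand in 6 of the 10 windows, beside 37.4% of all windows. The *Mthfd2* window and the *Psat1* window printed here each held 3 copies, as did 3.37% of all windows counting those with more. The other *Psat1* window (chr19:15924573-15924872), not printed here, held none, nor did those of *Shmt2* and *Mthfd2l*. *Mthfd1*, which was not called, held 1 copy, and *Mthfd1l* held none. A match describes letters in the window and is neither a site nor a cause, and the search covered these windows alone.

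*Phgdh* encodes the dehydrogenase that takes the first and committed step of serine synthesis (ENSMUSG00000053398, chromosome 3, 98313170 to 98339990, mm10). Its level was 527, 519, 581 and 535 CPM in the LLC1 libraries and 186, 187, 187 and 170.0 CPM in the MLE12 libraries. Every LLC1 library lay far above every MLE12 library. The log2 fold change was 1.57 ± 0.05 (adjusted p = 1.9e-16), a 2.96-fold higher level in LLC1. *Phgdh* has many processed pseudogenes, so its reads can be split among copies. They can also go uncounted, as the handling of reads with several alignments was not given. Transcripts of 18 other annotated genes matched it at 90% identity or more over at least 200 bases, and 8 of these were in the table. Nearly all their counts fell on 1, ENSMUSG00000101431 (chromosome 8, 75711600 to 75713196, annotated as a processed pseudogene), which is 98.7% identical to *Phgdh* over 1597 bases. It drew 8.42% to 9.29% of the *Phgdh* count in the LLC1 libraries and 8.23% to 9.31% in the MLE12 libraries. These shares overlap between the lines, and its own log2 fold change was 1.59 ± 0.05. With the counts of the copies added to *Phgdh*, an alternative chosen after seeing the data, the log2 fold change was 1.57. Adding them does not restore reads that went uncounted.

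*Psat1* encodes the aminotransferase of the second step (ENSMUSG00000024640, chromosome 19, 15904678 to 15947337). It stood at 624, 605, 636 and 610.2 CPM in LLC1, against 358, 367, 382 and 390 CPM for MLE12. The ranges were apart, the log2 fold change being 0.73 ± 0.04 (adjusted p = 4.6e-12), or 1.65-fold. *Psph* encodes the phosphatase that releases serine in the last step (ENSMUSG00000029446, chromosome 5, 129765558 to 129787252). Its level was 132, 128, 136 and 125 CPM in LLC1, against 79.7, 73.4, 75.1 and 80.4 CPM for MLE12. The log2 fold change was 0.76 ± 0.05 (adjusted p = 8.8e-12), or 1.69-fold. *Psat1* and *Psph* thus differed by less than 2-fold between the lines, and neither was called against that minimum. In the annotation used, 452 bases of *Psph* exons (10.4%) also belong to *Cct6a* on the other strand, and the strand setting of the counting was not given.

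The ratio of the first step to each later step differed between the lines. Within a library, the ratio of *Phgdh* to *Psat1*, per length of the gene model, was 1.49 ± 0.05 in LLC1 and 0.836 ± 0.064 in MLE12 (n = 4 each). The ratio of *Phgdh* to *Psph* was 6.70 ± 0.24 in LLC1 and 3.83 ± 0.31 in MLE12. Neither ratio overlapped between the lines. The ratio of *Psat1* to *Psph* did overlap, at 4.41 to 4.61 in LLC1 and 4.24 to 4.79 in MLE12. No test was made on these ratios, and reads of *Phgdh* lost to its copies would lower those that hold it.

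Among the folate enzymes of the cytosol, one had the largest difference of the 10 genes and the other none that was called. *Shmt1* encodes the cytosolic serine hydroxymethyltransferase (ENSMUSG00000020534, chromosome 11, 60788104 to 60811718). It stood at 56.9, 61.3, 60.6 and 58.9 CPM in LLC1, against 7.94, 7.62, 8.16 and 7.78 CPM for MLE12. The groups were far apart, the log2 fold change being 2.91 ± 0.05 (adjusted p = 8.6e-20), a 7.54-fold higher level in LLC1. *Mthfd1* encodes the cytosolic enzyme that joins dehydrogenase, cyclohydrolase and formate-tetrahydrofolate ligase activities in 1 protein (ENSMUSG00000021048, chromosome 12, 76255232 to 76319820). Its level was 202, 209, 228 and 223 CPM in LLC1, against 215, 220.1, 230.5 and 210.4 CPM for MLE12. The ranges overlapped. The log2 fold change was -0.02 ± 0.05 (adjusted p = 0.681), with a 95% interval of -0.12 to 0.08, or 0.921-fold to 1.05-fold. Its sign turned under 3 of 18 alternatives, none of which gave a call.

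The mitochondrial set was higher in LLC1 throughout. *Shmt2*, the mitochondrial serine hydroxymethyltransferase (ENSMUSG00000025403, chromosome 10, 127517123 to 127522444), stood at 679, 664, 732 and 702 CPM in LLC1, against 211, 208, 216 and 206 CPM for MLE12. This was a log2 fold change of 1.73 ± 0.04 (adjusted p = 8.6e-18), or 3.31-fold, with the ranges apart. *Mthfd2* encodes the mitochondrial methylenetetrahydrofolate dehydrogenase and cyclohydrolase, known as an enzyme of embryonic and transformed cells (ENSMUSG00000005667, chromosome 6, 83305691 to 83317606). Its level was 239, 237, 259 and 236 CPM in LLC1, against 84.1, 78.8, 79.1 and 82.1 CPM for MLE12. The log2 fold change was 1.58 ± 0.04 (adjusted p = 5.1e-17), or 2.996-fold, which was close to those of *Phgdh* and *Shmt2*. Its paralog *Mthfd2l*, known from adult tissues (ENSMUSG00000029376, chromosome 5, 90931196 to 91021360), was low in both lines. It stood at 13.6, 12.6, 10.8 and 12.4 CPM in LLC1, against 7.18, 7.60, 8.77 and 9.20 CPM for MLE12. The log2 fold change was 0.59 ± 0.09 (adjusted p = 9.8e-06), or 1.51-fold, the smallest of the 9 called, and its libraries were the most spread of the 10 genes (coefficients of variation of 9.49% and 11.7%).

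*Mthfd1l* encodes the mitochondrial ligase that releases formate (ENSMUSG00000040675, chromosome 10, 3973118 to 4167081). It stood at 308, 311, 332 and 334 CPM in LLC1, against 58.7, 59.4, 58.4 and 54.4 CPM for MLE12. This was the second largest difference of the 10 genes, the log2 fold change being 2.48 ± 0.05 (adjusted p = 1.0e-19), or 5.56-fold. *Aldh1l2* encodes the mitochondrial dehydrogenase that oxidises formyl-tetrahydrofolate to carbon dioxide and yields NADPH (ENSMUSG00000020256, chromosome 10, 83487450 to 83534140). Its level was 161, 168, 164 and 185 CPM in LLC1, against 63.3, 70.8, 66.1 and 64.8 CPM for MLE12. The groups were apart, the log2 fold change being 1.36 ± 0.05 (adjusted p = 5.1e-15), or 2.56-fold. Exons covering 14.1% of the *Aldh1l2* model are shared with *D10Wsu102e* on the opposite strand, with the same limit on strand, and 4.74% of *Shmt1* exons with *Smcr8*.

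**Figure D2:**
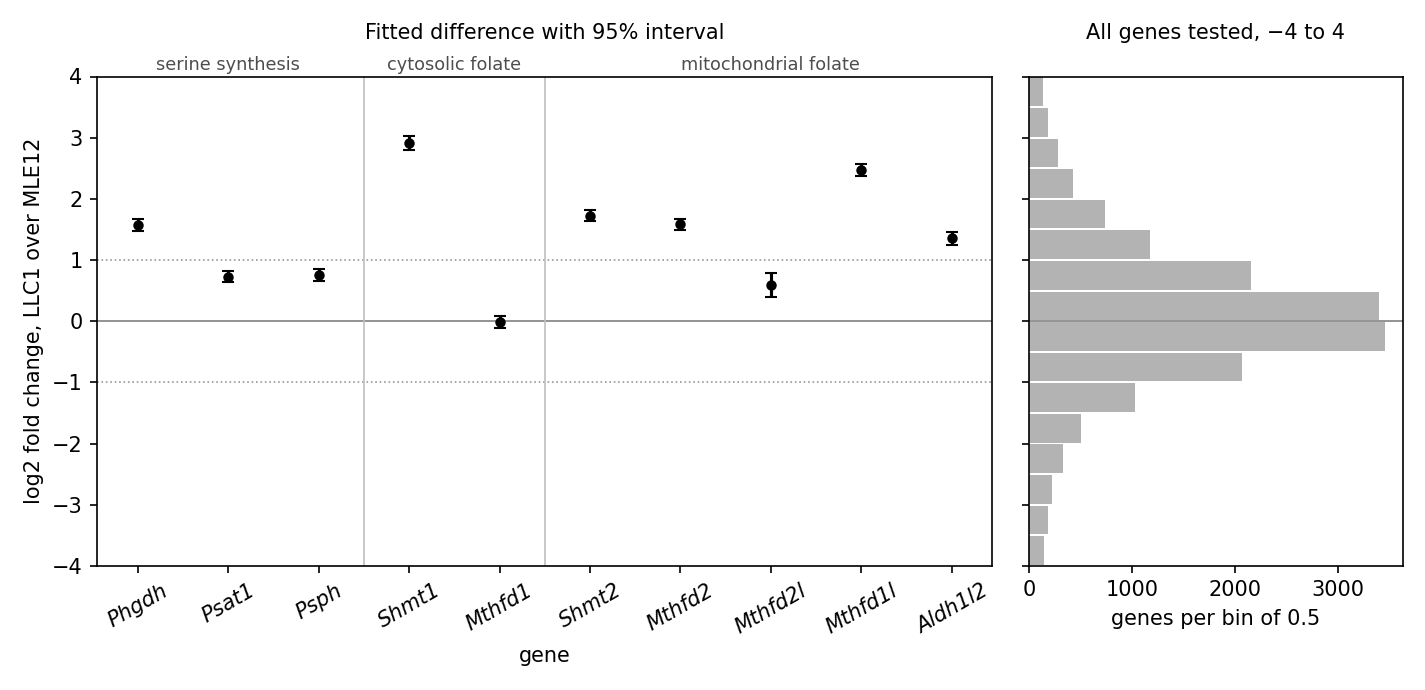
Fitted log2 fold change of LLC1 over MLE12 for the 10 genes with 95% intervals (left; dotted lines at a 2-fold difference), and the number of all tested genes per bin of 0.5 over the same axis, from -4 to 4 (right). Shmt1 and Mthfd1l lie highest, at 2.91 and 2.48, and the interval of Mthfd1 spans 0.

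The mitochondrial to cytosolic ratio was lower in LLC1 at the hydroxymethyltransferase, and higher in LLC1 for *Mthfd1l* and *Mthfd2* against *Mthfd1*. Per length, *Shmt2* exceeded *Shmt1* 19.7 ± 0.97-fold in LLC1 and 44.9 ± 0.67-fold in MLE12 (SD, n = 4 each), since *Shmt1* differed more between the lines than *Shmt2*. *Mthfd1l* and *Mthfd1* stood at a ratio of 1.12 ± 0.02 in LLC1 and 0.198 ± 0.007 in MLE12. *Mthfd2* stood to *Mthfd1* at 1.38 ± 0.06 in LLC1 and 0.453 ± 0.029 in MLE12. Both *Mthfd2* and *Mthfd1l* thus had more transcript per length than *Mthfd1* in LLC1 and less in MLE12, while *Mthfd2l* and *Aldh1l2* lay below it in both lines. *Mthfd2* exceeded its paralog *Mthfd2l* 16.3 ± 2.35-fold in LLC1 and 8.22 ± 1.08-fold in MLE12. Each of these 4 ratios was apart between the lines, with no test made. The *Mthfd2l* ratio rests on the table's length of 2235 bases, while the annotation used here gives 6645. The table's lengths of *Shmt2*, *Mthfd1* and *Mthfd2* are 0.741, 0.748 and 0.781 of the annotated exon length. A length sets the size of a ratio in both lines alike and leaves the difference between the lines as it is.

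**Figure D3:**
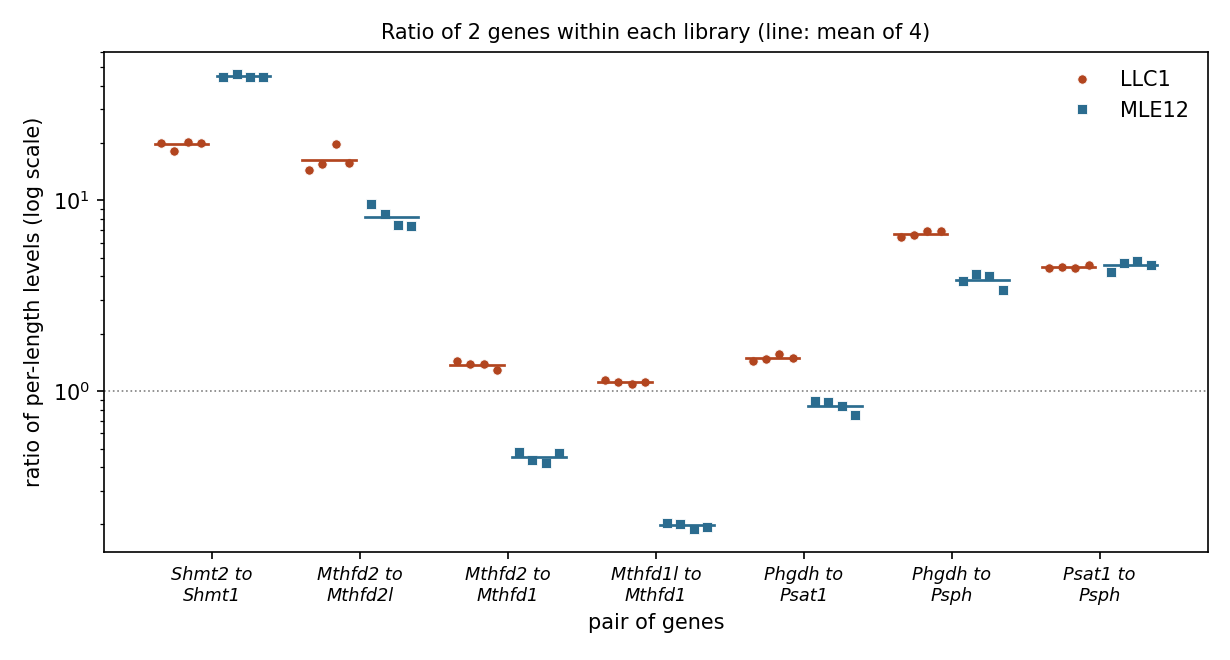
Ratio of the per-length levels of 2 genes within each library, on a log axis, with LLC1 as circles, MLE12 as squares, the mean of 4 libraries as a line and a ratio of 1 dotted. Mthfd2 to Mthfd1, Mthfd1l to Mthfd1 and Phgdh to Psat1 lie above 1 in every LLC1 library and below 1 in every MLE12 library. The crossing for Phgdh to Psat1 rests on dividing by length, since its raw count ratio is 0.845 to 0.913 in LLC1.

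Ordered by level per kilobase of the gene model (CPM per kb), with the table's lengths, *Shmt2* was first in both lines, at 301 in LLC1 and 91.1 in MLE12. In LLC1 it was followed by *Phgdh* (217), *Psat1* (145.5), *Mthfd2* (89.2), *Mthfd1l* (72.4), *Mthfd1* (64.9), *Psph* (32.5), *Aldh1l2* (22.6), *Shmt1* (15.3) and *Mthfd2l* (5.52). No neighbours in this LLC1 order overlapped over the 4 libraries. In MLE12 the order was *Shmt2*, *Psat1* (88.0), *Phgdh* (73.4), *Mthfd1* (65.9), *Mthfd2* (29.8), *Psph* (19.2), *Mthfd1l* (13.0), *Aldh1l2* (8.83), *Mthfd2l* (3.66) and *Shmt1* (2.03). There *Shmt2* overlapped *Psat1*, and *Phgdh* overlapped *Mthfd1*. The order depends on the lengths. With the annotated exon lengths, an alternative chosen after seeing the data, *Shmt2* was at 67.5 CPM per kb in MLE12, below *Psat1* and *Phgdh*, and its range overlapped that of *Phgdh*. In LLC1 it was at 223 CPM per kb, again overlapping *Phgdh*. There *Mthfd2* (69.6) lay below *Mthfd1l* with overlapping ranges, and in MLE12 *Mthfd2l* (1.23) lay below *Shmt1*.

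The surrounding pathway was read from 9 lists holding 76 other genes, of which 70 were tested. Of these, 43 were called for LLC1, 19 for MLE12 and 8 for neither, beside 40.7% and 40.9% of all genes tested. The median log2 fold change of the 70 was 0.42. The lists differed in how one-sided they were, and the difference between lists was not tested.

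By median alone, carriers of serine and glycine came nearest to the 10 genes, with 5 of 6 higher in LLC1 and a median of 1.14. Against a minimum fold of 2, 3 of the 6 were called for LLC1 and 1 for MLE12. *Slc1a5*, a neutral amino acid exchanger, had 280.4 ± 14.1 CPM in LLC1, against 50.01 ± 1.26 in MLE12 (2.49 ± 0.05). *Slc1a4*, the related serine and alanine carrier (2.28 ± 0.05), and the glycine carrier *Slc6a9* (1.66 ± 0.04) lay on the same side. The 1 gene called for MLE12 was *Slc7a10*, a carrier of small neutral amino acids, with 2 counts over the LLC1 and 830 over the MLE12 libraries. Genes of folate uptake and retention and of mitochondrial folate and serine transport were split, with 6 of the 9 tested called for LLC1, 2 for MLE12 and 1 for neither (median 0.40). The reduced folate carrier *Slc19a1* had 52.0 ± 2.77 CPM in LLC1, against 26.4 ± 2.36 in MLE12 (0.98 ± 0.06). The proton-coupled carrier *Slc46a1* was lower in LLC1, at 4.27 ± 0.23 against 10.4 ± 0.65 CPM (-1.29 ± 0.09). The sideroflexins *Sfxn2* (0.47 ± 0.06) and *Sfxn3* (0.44 ± 0.04) were higher in LLC1 by less than 1.5-fold, and the folate receptor *Folr1* had 0 counts over the LLC1 and 2 over the MLE12 libraries. *Ggh*, the hydrolase that trims the glutamate tail which retains folates, had 2 counts over the 4 LLC1 libraries and 462 to 694 per library in MLE12 (8.71 ± 0.53 CPM), a ratio of 856 with a counting interval of 237 to 7070 (exact binomial, 95%). The interval takes each count as an independent molecule, and is too narrow where both mates of a pair were counted. *Slc7a10*, *Ggh*, *Bhmt*, *Mycn* and *Atic* fell outside the rule for named genes and were chosen after their values were seen.

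Other folate enzymes of the cytosol went both ways, with 3 of 5 tested genes higher in LLC1 and 2 higher in MLE12. *Tyms*, thymidylate synthase, had 48.0 ± 3.06 CPM in LLC1, against 97.1 ± 1.16 in MLE12 (-1.02 ± 0.05, adjusted p = 1.9e-13). *Aldh1l1*, the cytosolic counterpart of *Aldh1l2*, was near the limit of detection in both lines, with 89 counts over the LLC1 and 55 over the MLE12 libraries (1.16 ± 0.40, adjusted p = 0.0118), and lost its call without LLC1 replicate 2 (adjusted p = 0.0512).

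De novo purine synthesis, which takes up formyl groups from folate, had 7 of 11 genes on the LLC1 side and 4 on the MLE12 side (median 0.46). *Gart*, which carries one of those formylations, was lower in LLC1 (-0.49 ± 0.04), as were *Ppat*, which opens the pathway (-0.95 ± 0.05), and *Impdh1* (-0.23 ± 0.05). *Pfas* (1.40 ± 0.04) and the adenylosuccinate synthases *Adssl1* (3.96 ± 0.06) and *Adss* (1.53 ± 0.06) were higher, as was *Atic* (0.79 ± 0.04), which carries the other formylation. In the methionine cycle and transsulfuration, 5 of 12 tested genes were called for LLC1 and 3 for MLE12, with 4 uncalled (median 0.28). *Cth*, which makes cysteine from cystathionine, had 74.7 ± 4.34 CPM in LLC1, against 2.64 ± 0.42 in MLE12 (4.84 ± 0.08). *Ahcy*, the hydrolase of S-adenosylhomocysteine, was also higher (1.23 ± 0.06). Methionine synthase *Mtr* (0.24 ± 0.06) and its reductase *Mtrr* (0.48 ± 0.06) differed by less than 1.5-fold, while the *Ahcy* relatives *Ahcyl1* (-0.53 ± 0.04) and *Ahcyl2* (-0.16 ± 0.05) were lower in LLC1. The call of *Ahcyl2* ended under 3 of 18 alternatives (adjusted p of 0.102 with upper-quartile factors, 0.0743 with at least 1 CPM in 4 libraries and 0.0880 without LLC1 replicate 1), and that of *Mtr* with library totals alone (adjusted p = 0.0692). The remaining gene called for MLE12, the betaine-dependent methyltransferase gene *Bhmt*, had 1 count over the LLC1 and 1270 over the MLE12 libraries.

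The glycine cleavage system, which feeds folate from glycine, had 2 of its 4 genes called for LLC1, 1 for MLE12 and 1 for neither. Its decarboxylase *Gldc* was at 0.845 ± 0.075 CPM in LLC1, against 0.109 ± 0.064 CPM for MLE12 (2.86 ± 0.36), low in both. The shared dehydrogenase *Dld*, which also serves other complexes, was higher in LLC1 (1.53 ± 0.06), and the carrier protein *Gcsh* was lower (-0.91 ± 0.04). The list named for serine use in lipids and serine breakdown showed no common side. Of the 9 tested, 3 were called for LLC1, 4 for MLE12 and 2 for neither (median -0.05). It includes *Serinc* genes, whose part in the use of serine was not tested. *Serinc5* was lower in LLC1 (-4.74 ± 0.07), as were *Ptdss1*, a phosphatidylserine synthase (-0.70 ± 0.04), and *Serinc1* (-0.44 ± 0.05). *Serinc3* (0.80 ± 0.04), *Ptdss2* (0.48 ± 0.05) and the racemase *Srr* (0.23 ± 0.04) were higher.

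All 8 genes of the list of *Atf4* and genes it is known to activate were higher in LLC1, 7 of them against a minimum fold of 2, with a median of 2.10. *Atf4* itself had 692 ± 36.8 CPM in LLC1, against 155 ± 6.80 in MLE12 (2.16 ± 0.05, adjusted p = 1.9e-18). The pseudokinase *Trib3* (3.04 ± 0.06) and the stress sensor *Sesn2* (2.20 ± 0.05) were among them. ATF4 is known to be controlled largely at translation, and its protein was not measured. Of 6 other known regulators of serine synthesis genes, LLC1 had the higher level for 4 and MLE12 for 2 (median 0.14). *Myc* had 353 ± 12.2 CPM in LLC1, against 43.7 ± 0.88 in MLE12 (3.02 ± 0.04). *Trp53* (0.30 ± 0.04) and *Ehmt2*, which encodes the histone methyltransferase G9a (0.18 ± 0.04), were slightly higher in LLC1, and the demethylase gene *Kdm4c* was lower (-0.77 ± 0.06). The call of *Ehmt2* ended with library totals alone (0.08, adjusted p = 0.142). *Mycn*, a relative of *Myc*, had 4 counts over the LLC1 and 411 over the MLE12 libraries. *Nfe2l2*, which encodes NRF2, stood at 210.4 ± 9.32 against 196 ± 10.4 CPM (0.11 ± 0.05, adjusted p = 0.0463), and its call ended under 11 of 18 alternatives. The part of these regulators in the levels of the 10 genes was not tested.

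**Figure D4:**
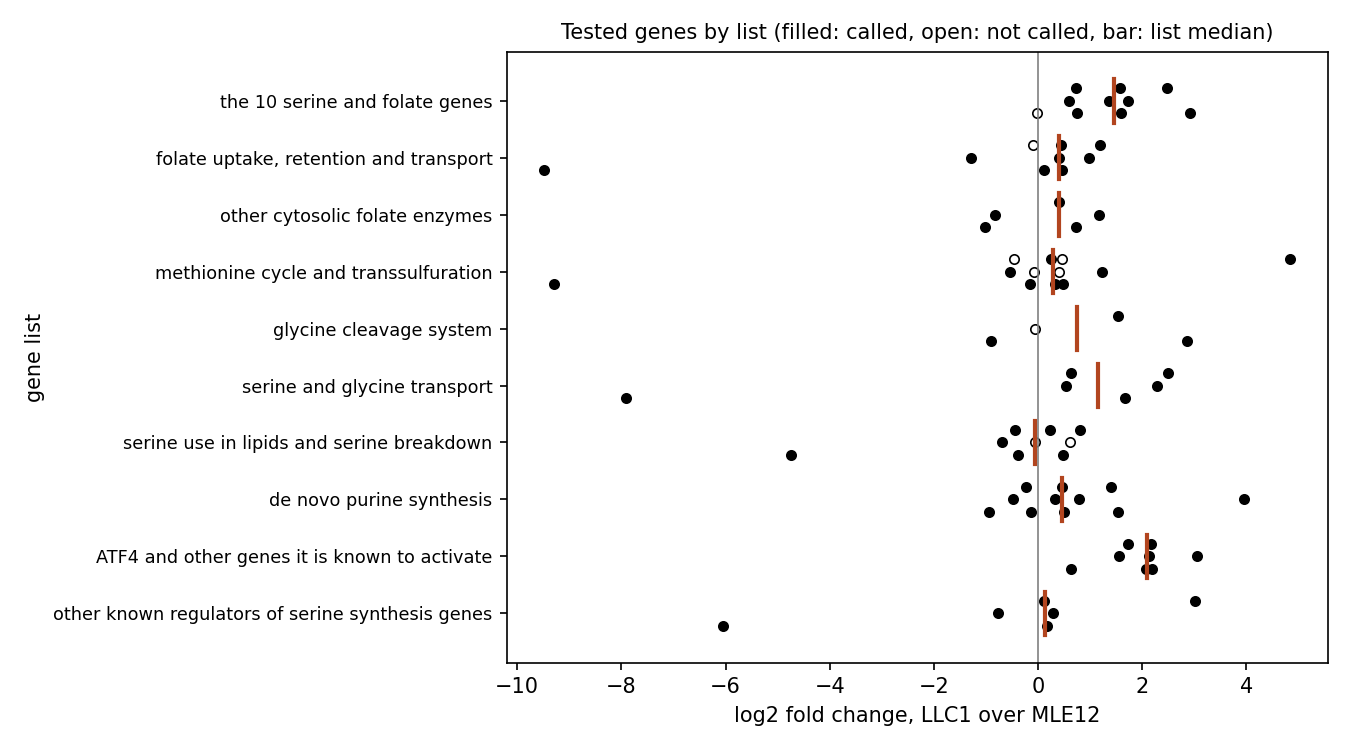
Log2 fold change of LLC1 over MLE12 for each tested gene of the 10 and of the 9 surrounding lists, filled where called and open where not, with the list median as a bar. The 10 genes and the ATF4 list lie almost wholly to the right of 0, with medians of 1.46 and 2.10, and the 3 values farthest to the left belong to Ggh, Bhmt and Slc7a10, with 1 or 2 counts in LLC1, and are no bounds.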

How the data were processed

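Poly-A RNA of 8 libraries, 4 per line by the labelled cell line, was sequenced as paired-end reads. The authors deposited raw counts per gene with gene name, mm10 position and length. The submitters' processing notes name CASAVA, TopHat2, featureCounts and edgeR. Versions, strand setting and handling of reads with several alignments: not given in the sources used here. In each library more genes held 2 counts than 1 (in LLC1 replicate 1, 1392 and 1130), which can happen when mates are counted singly. Whether they were was not tested, so the counts cannot be taken as independent molecules.

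Counts were filtered by filterByExpr, scaled by TMM (factors 0.924 to 1.045) and fitted with glmQLFit (robust) and glmQLFTest in edgeR 4.0.16 (R 4.3.3), without covariates. The fit was tested on counts simulated with the MLE12 means in both lines and few genes changed by known folds. In the data 81.6% of genes were called, so that simulation does not test the fit where most genes differ. The biological coefficient of variation was 7.10%. The table's length equals the GENCODE M21 exon length for 5 of the 10 genes. Copies were found with blastn 2.17.0. Alternatives were DESeq2 1.42.0, limma-voom (limma 3.58.1), other scalings and filters, a 2-fold minimum, a replicate block and each library left out. Counts of calls were compared over these 18. For the fold change or call of a single gene, the 18 leave out the 2-fold minimum. They include instead the fit with the *Phgdh* copies merged, which was chosen after seeing the data.

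The 10 genes and all lists were chosen with earlier results of these data known. Named were the 10 genes. Each list adds up to 3 of its largest called changes per direction at 10 CPM or more in the higher line, and *Atf4*, *Myc*, *Nfe2l2*, *Slc19a1*, *Mtr*, *Tyms*, *Gldc*, *Aldh1l1* and *Folr1* were always named. Some genes that the rule names are not reported here.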

Additional observations from a re-analysis of the deposited data

Results flagged for a closer look

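Among 34 sets of 4 libraries checked (levels of the 10 genes and 7 ratios, per line), 4 were flagged by Dixon's outlier rule. The rule takes the distance of an end library from its nearest neighbour as a share of the set's range. That share was 0.866 to 0.951 in the 4 flagged sets. Sets with smaller shares were not flagged, even where the distance took up most of the range. At the cutoff used, chance flags about 1 set in 20. *Phgdh* in MLE12 replicate 4 stood at 170.0 CPM, with the other 3 at 186 to 187. *Mthfd2* in LLC1 replicate 3 stood at 259 CPM, with the others at 236 to 239. The ratio of *Shmt2* to *Shmt1* was 18.3 in LLC1 replicate 2, with the others at 20.1 to 20.4. The same ratio was 45.9 in MLE12 replicate 2, with the others at 44.5 to 44.7. Each gap is small beside the difference between the lines.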

How the results depend on the processing

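The 9 genes called higher in LLC1 and the 0 called higher in MLE12 stood at the same numbers under 17 of 18 alternatives, DESeq2 and limma-voom among them, and with the *Phgdh* copies merged. The exception was the minimum fold of 2, with 6 called for LLC1 and 0 for MLE12. By edgeR at an unadjusted p under 0.05, 0 were higher in MLE12. The log2 fold change of *Mthfd1* turned positive with upper-quartile factors (0.037) and with at least 1 CPM required in 4 libraries (0.030), without a call. With library totals alone it was -0.119 (adjusted p = 0.0545 by edgeR), its lowest value under the alternatives, again without a call. It ran from -0.051 to 0.027 over the fits that each left out 1 library, the highest without LLC1 replicate 1. The cause was not tested. Those of *Shmt1* and *Mthfd1l* ran from 2.82 to 2.97 and from 2.38 to 2.53, and that of *Mthfd2l*, lowest of the 10 genes in counts over both lines, from 0.49 to 0.65. Against a minimum fold of 2, 3100 of all genes were called for LLC1 and 3143 for MLE12 in place of 7554 and 7578, and over the surrounding lists 18 and 6 in place of 43 and 19. Raw count ratios, not divided by length, were 11.7 and 26.7 for *Shmt2* to *Shmt1* in LLC1 and MLE12, 1.49 and 0.264 for *Mthfd1l* to *Mthfd1*, 19.9 and 10.01 for *Mthfd2* to *Mthfd2l*, and 0.873 and 0.489 for *Phgdh* to *Psat1*. With annotated exon lengths the first 3 were 14.6 and 33.3, 1.49 and 0.264, and 37.9 and 19.1. With a replicate block the 10 genes gave 9 and 0, and the *Mthfd1* log2 fold change was -0.022. Deviations of same-numbered libraries correlated at -0.07, 0.16, 0.14 and -0.20, and those of differently numbered ones at -0.17 to 0.23. With so few libraries, these values cannot decide whether those of the same number were handled together. Among named list genes, calls ended for *Nfe2l2* under 11 alternatives, for *Ahcyl2* under 3, and for *Ehmt2*, *Mtr* (both with library totals alone) and *Aldh1l1* under 1 each. Library totals alone moved the median of all genes to -0.08 and upper-quartile factors moved it to 0.07.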
